A study of Mus musculus with 24 samples.

Results

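The stomach of *Trex1*-/- mice given SN-011 was compared with the stomach of *Trex1*-/- mice given vehicle. All samples with the tissue label Stomach were taken, which gave 6 of the 24 samples of the series, 3 with SN-011 and 3 with vehicle, and every gene of their count files was used. All mice of both groups lacked TREX1, so no sample of a mouse with an intact gene stands beside them. According to the methods of the study the mice were on the C57BL/6J background, were 1 month old, and received SN-011 intraperitoneally at 10 mg/kg every day for 2 weeks, with a PBS solution of the detergent Tween as vehicle. The sample labels differ on the schedule (5 mg/kg, 3 times a week, 4 weeks) and list the control mice as untreated, but both sources put the 6 samples in the same groups. No source used here says whether each sample is a separate mouse, so p-values measure the spread between these samples.

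TREX1 is an exonuclease that degrades DNA in the cytosol. Without it, self DNA is sensed by cGAS, whose product cGAMP activates STING, and STING drives type I interferon (IFN) and the IFN-stimulated genes. SN-011 is a small-molecule antagonist of STING. The mouse stomach has 2 kinds of lining: the forestomach carries a keratinised squamous epithelium, and the rest carries glands with pit, neck, parietal, chief and endocrine cells. A bulk sample of stomach therefore reads both what the cells express and how much of each lining, muscle and stroma was in the piece, and fewer cells of a type cannot be told apart from less RNA per cell.

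Total counts of the 6 samples lay between 14569890 and 16901178, so that 3 counts, taken as the smallest level that can be shown, came to 0.178 to 0.206 CPM (counts scaled to library size) for counting error alone. Levels below are CPM scaled by TMM, and they compare samples for 1 gene, not genes with each other. Vehicle replicate 1 had 7843 counts of *Xist* and 0 of *Ddx3y*, the pattern of a female mouse, while the other 5 samples had 2 to 20 and 889 to 1522. No count of *Trex1* was listed for any of the 6, which does not check the genotype because the gene overlaps *Atrip*. The label stomach was borne out by the gastric proton pump gene *Atp4a*, at 1097 to 3391 CPM in the 6 samples.

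By mean log2 level, the SN-011 samples held more squamous signal, relative to glandular, than the vehicle samples. As a composition score, the mean log2 level of the squamous genes minus that of the glandular genes was taken for each sample. It was −3.34, −3.12 and −3.52 in vehicle replicates 1 to 3, and −0.60, −2.43 and −1.57 in SN-011 replicates 1 to 3. The groups did not overlap, and SN-011 replicate 2 lay nearest to vehicle. The squamous mean alone was also apart between groups (2.61 to 3.61 in vehicle, 4.32 to 4.77 with SN-011), while the glandular mean overlapped (6.12 to 6.76 and 5.37 to 6.75). The mean of 20 smooth muscle genes was 8.10, 6.13 and 7.06 in vehicle and 8.85, 7.97 and 8.21 with SN-011, with vehicle replicate 1 inside the SN-011 range. Summed CPM did not separate the groups: the sum over basal squamous genes was 2827, 2195 and 1266 in vehicle and 3472, 2467 and 2775 with SN-011, which overlap, and that over cornified genes was 7160, 5662 and 1745 and then 2046, 2835 and 2494. The part of the piece of tissue taken in these differences was not tested, and since the score separates the groups, composition and treatment cannot be fully told apart.

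**Figure D1:**
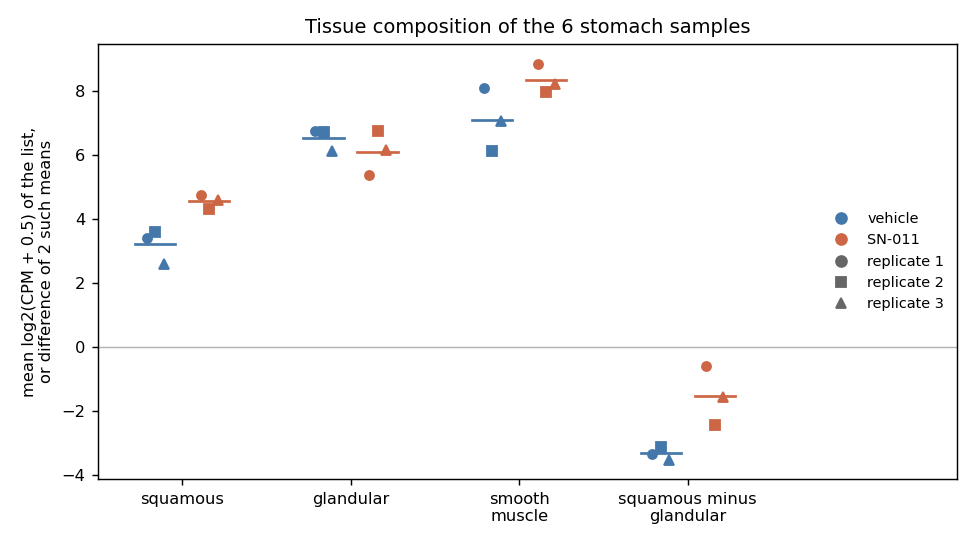
Each point is 1 stomach sample, with its mean log2(CPM + 0.5) over the squamous, glandular or smooth muscle genes, or the squamous minus the glandular mean; lines are means of 3 samples. The squamous minus glandular score lies between −3.52 and −3.12 in vehicle and between −2.43 and −0.60 with SN-011.

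Of 17031 genes tested, 0 passed an adjusted p of 0.05 in edgeR's quasi-likelihood test (0% of the genes tested), and the smallest adjusted p was 0.0618. At an unadjusted p under 0.05, 1942 genes were lower after SN-011 (11.4%) and 2241 were higher (13.2%). All 3 SN-011 samples lay below all 3 vehicle samples for 2586 genes (15.2%) and above them for 3027 (17.8%). The count of calls depended on the test and on single samples: DESeq2 called 1112 lower and 1277 higher and edgeR's exact test 701 and 1134, and the quasi-likelihood test called 64 genes without vehicle replicate 1 and 59 without SN-011 replicate 2. At the unadjusted threshold the genes lower came to 1192 without vehicle replicate 2, and to 1135 and 985 without SN-011 replicates 1 and 3, where those higher came to 1243 and 1409. In a joint fit of all 24 samples, whose estimate of the spread is shared with heart, muscle and tongue, 1417 of 19731 genes were lower in the stomach (7.18%) and 1321 were higher (6.70%). Because no gene passed in the 6 stomach samples alone, genes below are given by their values and described as lower or higher. "Unadjusted p" below refers to that test, and "joint fit" to the one of 24 samples.

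For immune lists, medians are given from the plain comparison and with the composition score as a numeric term. In simulated counts without a composition shift, the plain comparison called 51 of 98 genes changed 4-fold (52%) and 1 of 99 changed 2-fold. In other simulated counts, where each gene also had a random shift along the score, the fit with the score called 0 of both. The simulated data differ, so these shares cannot be compared with each other. Calls from the fit with the score are not read. Its values are given for direction and size only, and how well it recovers either is not reported here. With the score, 128 genes were lower and 189 higher at an unadjusted p under 0.05, and 0 passed the adjusted threshold. With the smooth muscle score as the term, chosen after seeing the data, the medians were −0.68 for antiviral effectors, −0.68 for MHC class I, −0.90 for MHC class II, −0.38 for M7core, −0.27 for IFN-inducible GTPases, −0.44 for the mast cell list, −0.85 for T and NK cells, −0.08 for macrophages and 0.03 for IFN sensing and signalling.

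Genes that IFN induces against viruses were lower in the SN-011 stomachs. Of 39 antiviral effectors, 38 were tested, and 36 were lower and 2 higher. At an unadjusted p under 0.05, 23 were lower (60.5%, against 11.4% of all genes tested). The groups did not overlap for 23, all of them lower (60.5%, against 15.2%). The median log2 fold change of the list was −0.97, against 0.00 over all genes tested. It was −0.68 with the score as a term, where 33 were lower. In the joint fit 17 of 38 fell, against 7.18% of all genes. The mean log2 level of the 38 genes was 6.68, 7.13 and 7.01 in vehicle and 5.74, 6 and 6.41 with SN-011. Each SN-011 sample lay below all vehicle samples, and the part of composition in this was not tested.

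Many of these genes carry an element bound by IFN regulatory factors close to their start, and 3 promoters of effectors with low p are shown because they let a reader see that element beside the values. The search used 250 bases before to 50 after each gene's start (RefSeq, GRCm38.p6) for GAAANNGAAA, or TTTCNNTTTC where it lies on the other strand. The 250 bases before the start are printed 5′ to 3′ on the gene's strand, with matches in capitals:
Rsad2, chr12:26456453-26456702, minus strand: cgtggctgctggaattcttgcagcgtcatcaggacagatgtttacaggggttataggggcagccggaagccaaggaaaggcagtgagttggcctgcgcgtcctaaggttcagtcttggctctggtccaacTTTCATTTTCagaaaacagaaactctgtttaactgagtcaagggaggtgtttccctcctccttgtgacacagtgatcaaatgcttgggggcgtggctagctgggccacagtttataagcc
Ddx60, chr8:61927837-61928086, plus strand: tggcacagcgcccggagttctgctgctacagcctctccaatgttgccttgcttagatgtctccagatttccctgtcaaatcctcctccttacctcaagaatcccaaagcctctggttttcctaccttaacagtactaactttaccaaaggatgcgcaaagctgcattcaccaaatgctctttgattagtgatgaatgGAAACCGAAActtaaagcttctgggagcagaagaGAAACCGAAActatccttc
Phf11b, chr14:59341331-59341580, minus strand: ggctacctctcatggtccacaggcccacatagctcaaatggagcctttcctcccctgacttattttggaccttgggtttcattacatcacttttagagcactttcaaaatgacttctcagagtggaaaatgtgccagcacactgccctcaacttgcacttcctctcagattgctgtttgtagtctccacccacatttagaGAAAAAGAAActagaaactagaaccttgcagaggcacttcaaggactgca

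The match lies 120 bases before the start of *Rsad2*, on its other strand, 53 and 19 bases before that of *Ddx60*, and 50 bases before that of *Phf11b*. Of the effectors, 30 had a promoter in the table, and 17 of these held a match (56.7%), against 475 of 12149 among all genes tested (3.91%). The share was 10 of 10 for the IFN-inducible GTPases, 5 of 19 for MHC class I genes (26.3%), 1 of 9 for MHC class II genes (11.1%), 0 of 12 for basal squamous genes and 1 of 34 for cornified envelope genes (2.94%). Among effectors with a match, 17 of 17 were lower and 12 did not overlap, with a median log2 fold change of −1.01. Among the 13 without, 11 were lower and 7 did not overlap, with a median of −0.81. A match is a run of letters and does not show that a factor binds there.

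*Rsad2*, which encodes viperin, an enzyme that makes a chain-terminating nucleotide, lay at 98.9, 118 and 121 CPM in vehicle and at 26.2, 30.8 and 40.8 CPM with SN-011. The groups were well apart, with a log2 fold change of −1.79 ± 0.25 (SE, unadjusted p = 7.95e-05 and adjusted p = 0.0618 in edgeR's quasi-likelihood test) and −1.55 with the score as a term. *Cmpk2*, its neighbour on chromosome 12 and a nucleotide kinase, lay at 58.6, 123 and 109 CPM and then at 18.9, 20.8 and 32.6 CPM. The helicase gene *Ddx60* lay at 174, 221 and 220 CPM in vehicle and 27.5, 57.7 and 75.6 CPM with SN-011. The log2 fold change of *Ddx60* was −1.93, and −0.97 with the score, and the part of composition in this was not tested. *Phf11b*, a zinc-finger gene of an IFN-responsive family, lay at 31.3, 43.7 and 39.0 CPM and then at 14.5, 9.43 and 19.5 CPM, with −1.39 and, with the score, −1.98.

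The most abundant effectors were not all apart between the groups. *Lgals3bp*, a secreted galectin-binding protein, lay at 837, 938 and 345 CPM in vehicle and 125, 311 and 257 CPM with SN-011. *Oasl2*, of the oligoadenylate synthetase family, lay at 644, 743 and 435 CPM and then at 169, 268 and 333 CPM. In both the groups did not overlap. *Oas2*, of the same family, lay at 235, 636 and 669 CPM and at 265, 453 and 634 CPM, which overlap, with a log2 fold change of −0.19 ± 0.49 that was 0.53 with the score. *Mx1*, a GTPase that blocks influenza viruses, had a log2 fold change of −1.98 without the score and −0.02 with it.

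Sensors and the factors that carry the IFN signal were mixed. Of 35 genes tested of 37, 22 were lower and 13 higher. At an unadjusted p under 0.05, 8 were lower and 3 higher (22.9% and 8.57%, against 11.4% and 13.2% of all genes tested). The median was −0.24 (−0.37 with the score, −0.09 without vehicle replicate 3 and −0.37 without vehicle replicate 1). The RNA sensor *Ifih1* (MDA5) lay at 112, 130 and 135 CPM in vehicle and 25.4, 49.5 and 50.7 CPM with SN-011, and *Ddx58* (RIG-I) at 92.2, 136 and 136 CPM and then at 38.5, 46.4 and 64.7 CPM. *Tlr3*, the endosomal receptor of double-stranded RNA, lay at 41.5, 49.7 and 45.1 CPM and then at 18.2, 24.2 and 20.4 CPM. All 3 were apart between the groups.

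Among the transcription factors, *Irf7* had a log2 fold change of −0.68 (unadjusted p = 0.0750), and *Stat2* overlapped (−0.33, unadjusted p = 0.450). *Ifngr1*, a receptor chain for IFN-γ, was at −0.41 with overlapping groups. *Irf3*, the factor that STING signalling activates, lay at 73.9, 77.2 and 63.3 CPM in vehicle and 111, 107 and 124 CPM with SN-011, a log2 fold change of 0.68 (0.58 with the score). *Tmem173*, which encodes STING, was low and overlapped, at 7.18, 10.04 and 11.7 CPM against 17.1, 5.41 and 11.1 CPM.

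IFN-inducible GTPases, which attack the vacuoles of intracellular microbes, were lower for 17 of 18 genes. Of these GTPases, 6 were lower at an unadjusted p under 0.05 (33.3%, against 11.4% of all genes tested). Their median was −0.97, −1.40 with the score and −0.46 without vehicle replicate 3. *Irgm1* lay at 204, 242 and 211 CPM in vehicle and 52.2, 75.1 and 90.2 CPM with SN-011, with a log2 fold change of −1.59 ± 0.29, and it fell in the joint fit (adjusted p = 0.000299). *Igtp* lay at 127, 285 and 263 CPM and then at 76.0, 70.9 and 118 CPM. *Gbp3* and *Gbp7*, of the guanylate-binding protein family, were at −1.09 and −1.14, with no overlap.

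Chemokines that draw T cells and monocytes split. Of 19 tested of 20, 10 were lower and 9 higher, with a median of −0.04 that was −1.80 with the score. Without vehicle replicate 1 or 3 it was 0.28 or 0.15, and without SN-011 replicate 1 or 2 it was −0.41 or 0.33. *Cxcl9*, induced by IFN-γ, lay at 30.2, 41.8 and 58.1 CPM in vehicle and 12.3, 9.43 and 12.7 CPM with SN-011, a log2 fold change of −1.92 ± 0.30. *Cxcl11*, which binds the same receptor, was at 2.19 to 3.12 CPM in vehicle and at 0.00 to 0.368 CPM with SN-011. *Cxcl16* was at −0.55 and *Cxcl12*, a stromal chemokine, at 0.73 with overlapping groups. *Ccl19*, a chemokine of lymphoid tissue named after its values were seen, was at 0.00 to 0.403 CPM in vehicle and 0.792 to 3.42 CPM with SN-011, close to the smallest level that can be shown.

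Antigen presentation was lower throughout. All 23 genes of the MHC class I pathway had a log2 fold change below 0, between −1.48 and −0.29. Of these, 12 had an unadjusted p under 0.05 (52.2%, against 11.4% of all genes tested) and 15 did not overlap (65.2%, against 15.2%). The median was −0.81, and −0.69 with the score, where 21 were lower. In the joint fit 16 of 23 fell, against 7.18% of all genes. *B2m*, the light chain of every class I molecule, lay at 4331, 4625 and 4194 CPM in vehicle and 1257, 1766 and 1698 CPM with SN-011. The groups did not overlap, and the log2 fold change was −1.48 ± 0.44 (unadjusted p = 0.00893, and −1.06 with the score).

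*H2-K1*, a class I heavy chain, lay at 5941, 5816 and 4069 CPM and then at 1721, 2716 and 2580 CPM. The other heavy chain *H2-D1* lay at 3863, 3385 and 2030 CPM in vehicle and 1281, 1887 and 1972 CPM with SN-011, the highest SN-011 sample lying just under the lowest vehicle sample (unadjusted p = 0.100). These heavy chains belong to a family of near-identical genes, so their counts may be split among copies. The immunoproteasome subunits *Psmb9* and *Psmb8* were at −1.34 and −1.20, and the proteasome activator *Psme1*, at 498, 311 and 352 CPM against 142, 187 and 176 CPM, was at −1.20.

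MHC class II genes, used by dendritic cells, macrophages and B cells, were lower for 12 of 12 genes, with a median of −0.89 and −1.69 with the score. At an unadjusted p under 0.05, 6 were lower (50%, against 11.4% of all genes tested). *H2-Ab1* lay at 556, 509 and 388 CPM in vehicle and 218, 160 and 190 CPM with SN-011. *H2-Aa* lay at 475, 465 and 420 CPM and then at 266, 206 and 240 CPM. *Cd74*, the invariant chain, was at −0.86 and *H2-DMb1*, which helps load peptides, at −0.97. In all 4 genes the groups did not overlap.

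**Figure D2:**
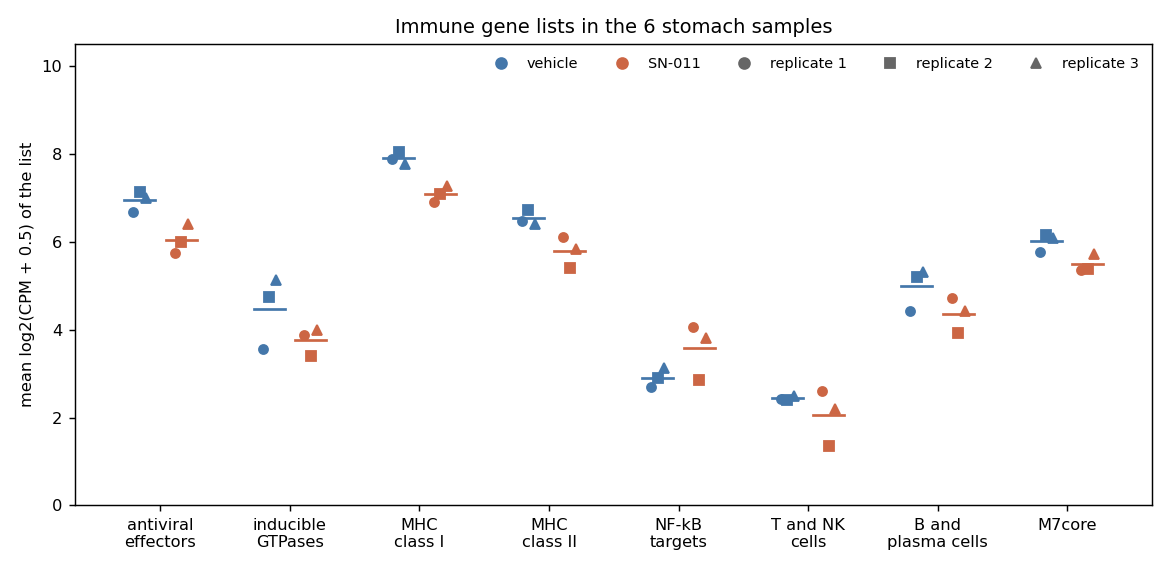
Each point is the mean log2(CPM + 0.5) over the tested genes of an immune list in 1 stomach sample, and lines are means of 3 samples. The antiviral effectors, MHC class I, MHC class II and M7core lists lie lower in all 3 SN-011 samples than in any vehicle sample, and the other 4 lists plotted overlap.

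M7core is a set of 159 genes that the study describes as a signature driven by cGAS-STING. Its source module came from stimulated fibroblasts and was picked for its strong rise in *Trex1*-/- macrophages and hearts. The study also reports lower M7core expression after SN-011 in several tissues, stomach among them. Of the 159 genes, 158 were tested. In the stomach 65 of these lay lower without overlap (41.1%, against 15.2% of all genes tested) and 6 higher (3.80%, against 17.8%). At an unadjusted p under 0.05, 62 were lower (39.2%, against 11.4%) and 7 higher (4.43%, against 13.2%). With the score as a term 131 of 158 were lower, with a median of −0.55, against −0.62 without it. The list was chosen for binding of IRF2, so the share of its promoters with a match, 55 of 127 (43.3%), is not independent of how it was made. *Ube2l6*, which attaches ISG15 to proteins, lay at 146, 122 and 115 CPM in vehicle and 34.9, 39.9 and 53.4 CPM with SN-011, with a log2 fold change of −1.58 ± 0.26. *Ly6e*, a membrane protein that restricts coronaviruses, lay at 3157, 2032 and 1400 CPM and then at 455, 742 and 675 CPM.

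Without the IFN modules, 117 M7core genes were tested, with a median of −0.53, and −0.41 with the score. Members that lay higher included the serotonin transporter *Slc6a4*, at 0.161 to 0.428 CPM in vehicle and 1.98 to 8.05 CPM with SN-011, and *Calcoco1*, an autophagy receptor of the endoplasmic reticulum, at 36.1, 21.6 and 17.97 CPM against 113, 63.2 and 82.6 CPM. *Calcoco1* was named after its values were seen. In the joint fit 55 of 159 M7core genes fell and 3 rose, against 7.18% and 6.70% of all genes.

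Genes of necroptosis and pyroptosis, forms of lytic cell death, were lower for 11 of 15 tested of 16, with a median of −0.49 and −0.39 with the score. At an unadjusted p under 0.05, 6 were lower and 1 higher (40% and 6.67%, against 11.4% and 13.2% of all genes tested). *Casp8*, the caspase that holds necroptosis in check, lay at 78.4, 84.6 and 87.6 CPM in vehicle and 27.9, 46.7 and 39.5 CPM with SN-011. *Il18*, a cytokine released in pyroptosis and made by epithelium, was at −1.27, and at 0.68 with the score. *Gsdmd*, the pore-forming gasdermin, was at −0.43 (0.16 with the score). *Gsdma*, a gasdermin of squamous epithelium, was higher, at 14.1, 8.18 and 8.54 CPM against 2.50, 3.24 and 0.802 CPM.

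NF-kB targets went the other way. Of 18 tested of 25, 14 were higher and 4 lower, with a median of 0.55 that was −0.32 with the score. *Saa3*, an acute-phase protein, lay at 6.29, 3.18 and 4.23 CPM in vehicle and 99.6, 10.4 and 79.9 CPM with SN-011. *Lcn2*, which binds bacterial siderophores, lay at 12.5, 4.02 and 6.82 CPM with SN-011, against 0.748 to 2.42 CPM in vehicle. The part of composition in these values was not tested. *Nfkbia*, the inhibitor that NF-kB induces, was at 0.65 and 0.53 with the score. *Nfkb2* was at 0.59 and *Nfkb1* at −0.19, the last with overlapping groups. *Selp*, an adhesion molecule of platelets and endothelium, was at 0.00 to 0.321 CPM and 0.792 to 2.06 CPM.

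Markers of T and NK cells were lower for 24 of 31 genes tested of 34, but only 4 were lower at an unadjusted p under 0.05 (12.9%, against 11.4% of all genes tested). For 4 genes all SN-011 samples lay below all vehicle samples (12.9%, against 15.2%). The T cell receptor genes *Trbc1* and *Trbc2* overlapped, at −0.54 and −0.33, as did *Thy1* at 0.98. The genes named for the smallest p without overlap were cytotoxic granule genes, and nothing is read from them about the list. *Gzma* lay at 5.32, 2.62 and 3.10 CPM in vehicle and 0.766, 0.396 and 0.491 CPM with SN-011, and *Nkg7* and *Gzmb* were at −1.26 and −1.14. The median of the list was −0.40, and −1.96 with the score. It was −0.14 without SN-011 replicate 2 and −0.76 without SN-011 replicate 1. The mean level of the list was lowest in SN-011 replicate 2 (1.35) and overlapped in the other samples (2.40 to 2.49 in vehicle, 2.19 and 2.61 with SN-011).

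B and plasma cell genes were lower for 20 of 24, 11 of them at an unadjusted p under 0.05 (45.8%, against 11.4% of all genes tested). The median was −0.91, −1.74 with the score and −0.55 without vehicle replicate 3. In the joint fit 0 of the 24 passed. *Jchain*, which joins secreted IgA, lay at 256, 638 and 398 CPM in vehicle and 109, 108 and 165 CPM with SN-011. *Igha* lay at 3380, 4109 and 2395 CPM and then at 1573, 1120 and 2046 CPM, and *Igkc* was at −1.16. *Ighg2b* and *Tnfrsf17*, the survival receptor of plasma cells, were at −1.37 and −1.95. In these 5 genes the groups did not overlap.

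Macrophage markers were mixed, with 8 of 26 lower and 18 higher and a median of 0.31. With the score 24 of 26 were lower and the median was −0.78, and without SN-011 replicate 1 it was 0.00089. The most abundant, *Lyz2*, *C1qa* and *C1qb*, were at 0.41, 0.42 and 0.19 with overlapping groups. *Ly6c2*, a marker of inflammatory monocytes that IFN induces, lay at 46.1, 65.6 and 48.0 CPM in vehicle and 15.96, 9.10 and 16.2 CPM with SN-011 (−1.95 ± 0.30, and −2.82 with the score). *Ms4a7* was at −0.78 and *Mertk*, a receptor for dying cells, at 1.48. Of 12 dendritic cell genes tested of 13, 5 were lower and 7 higher, with a median of 0.40 that was −0.63 with the score, −0.12 without vehicle replicate 1, −0.18 without SN-011 replicate 1 and 0.70 without SN-011 replicate 2. *Itgax* was at −1.24 and *Bst2*, also an IFN-induced restriction factor, at −0.99, whereas *Clec10a* was at 1.87 and *Fscn1* at 1.19.

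Of 14 neutrophil genes, 6 were tested, and all 6 were higher, with a median of 1.90 and 0.31 with the score. At an unadjusted p under 0.05, 4 of the 6 genes were higher (66.7%, against 13.2% of all genes tested). Their levels were low: *S100a9* was at 0.242 to 0.588 CPM in vehicle and 2.09 to 2.95 CPM with SN-011, *Csf3r* at 1.77 to 3.21 CPM and 5.21 to 11.1 CPM, and *Mmp9* at 0.267 to 0.565 CPM and 0.660 to 2.47 CPM. The iron-binding protein gene *Ltf* was at 0.73. The filter keeps a gene of low level if it is high enough in 1 group alone. The direction of the genes tested is therefore partly set by the filter, and nothing is read from their count.

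Mast cell proteases were among the clearest differences. *Mcpt2* lay at 29.4, 30.7 and 20.1 CPM in vehicle and 3.12, 4.29 and 5.04 CPM with SN-011, a log2 fold change of −2.68 ± 0.33 (unadjusted p = 2.48e-05, adjusted p = 0.0618 in edgeR's quasi-likelihood test) and −2.39 with the score. *Mcpt1*, the other protease of mucosal mast cells, lay at 30.8, 38.0 and 19.6 CPM and then at 0.648, 3.83 and 3.38 CPM. *Cpa3*, common to mast cells, was at −1.46, and *Il33*, an alarmin that activates them, at −1.17 with overlapping groups. Of the 18 genes tested of this list of 26, 13 were lower and 5 higher, with a median of −1.07 and −0.999 with the score. At an unadjusted p under 0.05, 7 were lower (38.9%, against 11.4% of all genes tested) and 2 were higher (11.1%, against 13.2%).

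**Figure D3:**
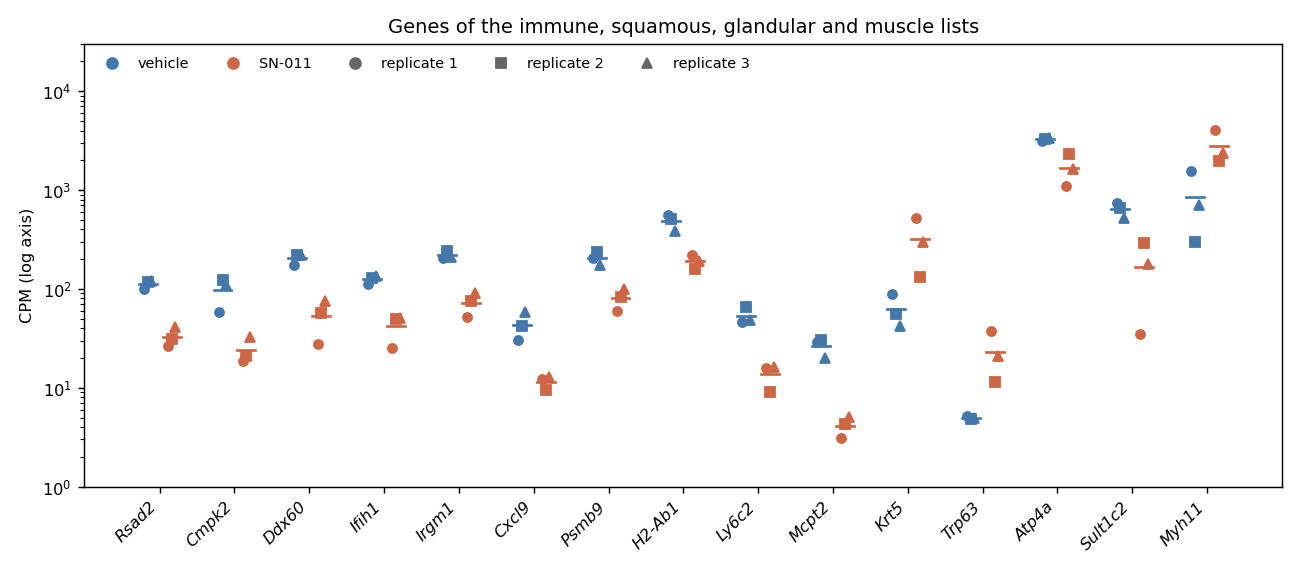
Each point is the CPM of 1 gene in 1 stomach sample on a log axis, and lines are means of 3 samples. The 10 immune genes from Rsad2 to Mcpt2 lie lower in all 3 SN-011 samples than in any vehicle sample, as do Atp4a and Sult1c2, while Krt5, Trp63 and Myh11 lie higher in all 3.

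The squamous genes that enter the score were higher. This is a description of the composition, since the score was made from them. Of 29 basal and suprabasal genes tested of 31, 21 were higher, 19 without overlap (65.5%, against 17.8% of all genes tested), with a median of 1.98. Of 38 cornified envelope genes tested of 47, 32 were higher, 27 without overlap (71.05%, against 17.8%), with a median of 1.94. *Krt5*, a basal keratin, lay at 88.3, 55.9 and 41.8 CPM in vehicle and 526, 133 and 301 CPM with SN-011. *Trp63*, the master factor of squamous epithelium, lay at 5.16, 4.86 and 4.97 CPM and then at 37.4, 11.3 and 21.1 CPM. In both, SN-011 replicate 1 was highest and replicate 2 lowest of the 3.

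*Krt14* followed the same order, at 638, 129 and 371 CPM against 37.6 to 94.1 CPM. *Krt78*, a keratin of stratified epithelium, was at 1.97, *Col17a1*, of hemidesmosomes, at 3.05 and *Pkp1*, of desmosomes, at 2.31. Among cornified genes *Lor* (loricrin) was at 2.42, *Ppl* (periplakin) at 1.93, *Aloxe3*, a lipoxygenase of the skin barrier, at 2.98, and *Lce1g* at 3.22. Apart from *Krt14*, the most abundant members of these lists did not follow. *Fabp5* and *Perp* overlapped, at −0.41 and −0.68. *Sprr2a3* lay at 3562, 1901 and 500 CPM in vehicle and 68.5, 575 and 578 CPM with SN-011, and *Sprr2a1* and *Sprr2a2*, near-identical neighbours whose reads may be shared, were at −1.88 and −1.998.

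Glandular genes were lower for pit and parietal cells and not for chief and endocrine cells. These genes enter the score too, so how their medians move with it follows in part from how it was made. Of 21 pit cell genes 20 were lower, with a median of −1.08 that was 0.72 with the score, and of 21 parietal genes 18 were lower, with −0.84 and 0.11. The pit cell genes *Gkn1*, *Gkn2* and *Psca* had overlapping groups, at −1.61, −1.36 and −0.74. *Sult1c2* lay at 739, 664 and 518 CPM in vehicle and 35.3, 292 and 177 CPM with SN-011, and *Anxa10* at 1907, 2080 and 1448 CPM and then at 124, 843 and 529 CPM. SN-011 replicate 1 was lowest in both. *Barx1*, a stomach mesenchyme factor that stands in the pit list, was higher, at 297, 141 and 182 CPM against 120, 28.4 and 35.2 CPM.

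*Atp4a*, the proton pump's catalytic subunit, lay at 3120, 3319 and 3391 CPM in vehicle and 1097, 2309 and 1617 CPM with SN-011. Its partner *Atp4b* overlapped, at −1.20, and *Car2* was at −1.66. *Esrrg*, a factor of parietal cells, was at −1.47 and *Kcne2*, a potassium channel subunit, at −1.22. For chief and neck cells 7 of 14 genes tested of 17 were lower, with a median of 0.03 that was −0.70 without SN-011 replicate 2. *Pgc*, *Tff2* and *Clps* overlapped, at 0.15, −0.86 and 2.24, *Pga5* was at −2.80 and *Bhlha15*, a factor of secretory cells, at 1.63. *Chia1*, a chitinase of chief cells, lay at 78.0, 3.49 and 45.8 CPM in vehicle and 207, 3213 and 116 CPM with SN-011, and its log2 fold change of 4.80 was 1.91 without SN-011 replicate 2. Endocrine genes were higher for 21 of 25, with a median of 0.54 that was 0.21 without SN-011 replicate 2 and 0.31 without vehicle replicate 3.

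Of 23 general glandular epithelial genes, 19 were lower, with a median of −0.92 that was −0.46 without SN-011 replicate 1. The simple keratins *Krt8*, *Krt18* and *Krt19* overlapped, at −1.23, −0.78 and −1.31, while *Gata6*, *Tspan8* and *Epcam* did not, at −1.12, −2.07 and −1.55. Muscle, nerve, vessel and matrix genes were mostly higher: 19 of 20 for smooth muscle (median 1.16, and 1.91 without vehicle replicate 1), 18 of 19 for enteric neurons and glia (1.01), 16 of 16 for endothelium (0.71) and 19 of 20 for fibroblasts (0.72, −0.58 with the score and 0.35 without SN-011 replicate 1). *Myh11*, the smooth muscle myosin, lay at 1565, 298 and 714 CPM in vehicle and 4001, 1968 and 2369 CPM with SN-011. *Acta2* and *Des* overlapped, at 0.58 and 1.28, and *Lmod1*, *Kcnmb1* and *Myocd* did not, at 1.61, 1.32 and 2.56. The glial factor *Sox10* was at 1.94, the vessel receptor *Flt1* at 1.35 and the collagen cross-linker *Lox* at 1.45.

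Lists of other tissues that a piece of stomach can carry were also read. Skeletal muscle genes were higher for 11 of 12 tested of 15 (median 1.27), with mean log2 levels of 4.41, 0.94 and 1.14 in vehicle and 4.61, 4.21 and 3.89 with SN-011, so that vehicle replicate 1 lay with the SN-011 samples, and the median was 3.92 without it. Adipocyte genes had a median of 0.45 (10 tested of 12, and −0.08 without SN-011 replicate 2), exocrine pancreas genes 0.80 (11 of 17, and −0.38 without SN-011 replicate 2), small intestine genes −0.31 (13 of 18) and erythroid genes 1.11 (5 of 9, with 2.19 without vehicle replicate 1 and 0.70 without vehicle replicate 3).

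**Figure D4:**
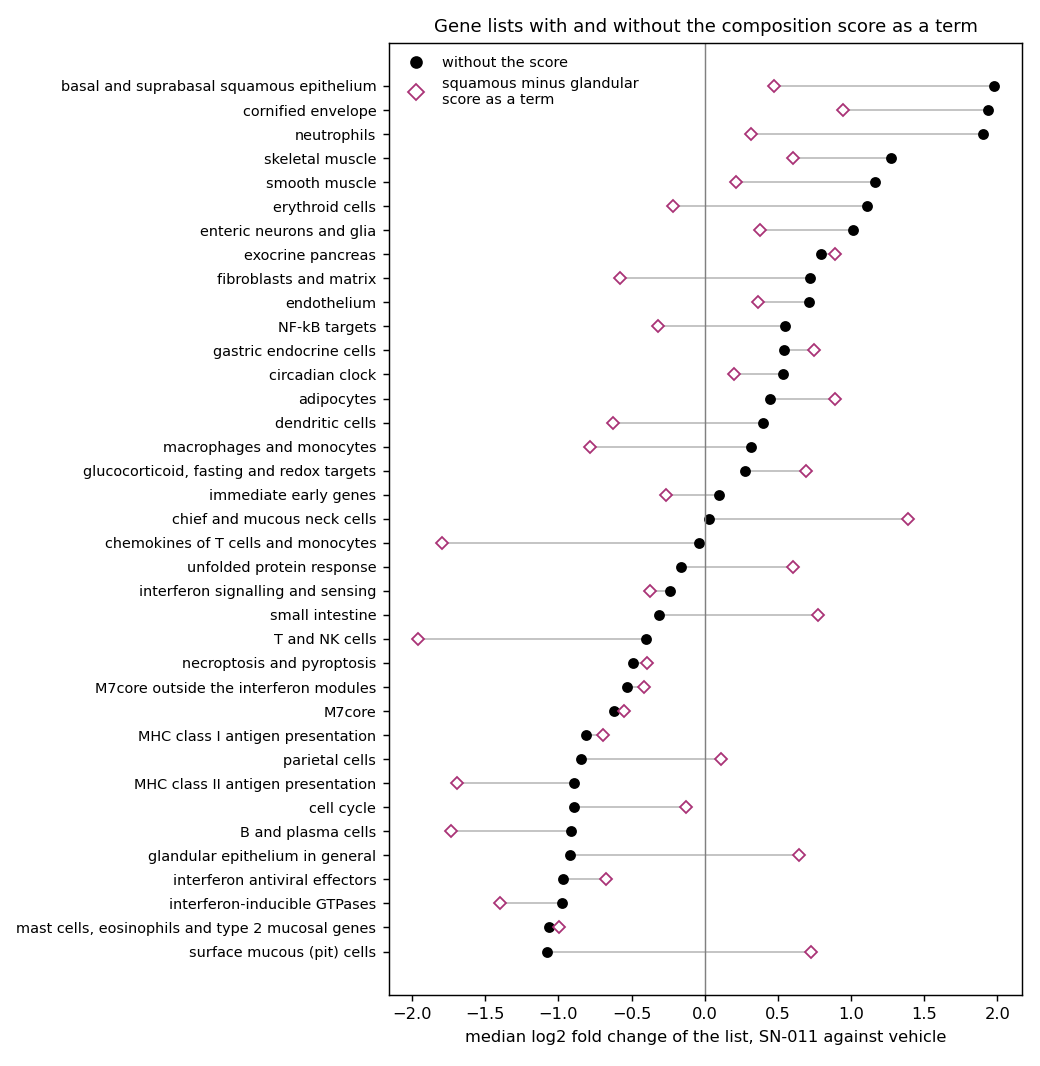
Each row is a gene list, with its median log2 fold change between SN-011 and vehicle stomach in the plain comparison (filled) and with the squamous minus glandular score as a term (open). With the score the antiviral effectors, MHC class I and M7core medians are −0.68, −0.69 and −0.55. The T and NK cell median moves from −0.40 to −1.96 and the pit cell median from −1.08 to 0.72. Squamous and glandular lists, pit cells among them, enter the score, so their moves follow in part from how it was made.

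Genes of the cell cycle, which mark the renewing epithelium, were lower for 23 of 24, with a median of −0.90 that was −0.13 with the score. At an unadjusted p under 0.05, 15 were lower (62.5%, against 11.4% of all genes tested). *Ccnb2* lay at 38.3, 46.8 and 28.3 CPM in vehicle and 6.89, 15.9 and 11.1 CPM with SN-011, and *Birc5* at 59.9, 55.3 and 52.4 CPM and then at 11.3, 28.8 and 18.1 CPM. *Mki67* was at −0.80 and *Ccnb1* at −1.72.

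Some genes that answer to fasting or glucocorticoids were higher, in a list that split as a whole. *Zbtb16* lay at 1.05, 0.437 and 0.963 CPM in vehicle and 9.13, 7.65 and 8.60 CPM with SN-011 (3.37 ± 0.48, and 3.28 with the score). *Pdk4*, which shuts off glucose oxidation, lay at 42.9, 18.2 and 17.7 CPM and then at 123, 142 and 131 CPM. *Angptl4*, an inhibitor of lipoprotein lipase, was at 2.74 and 2.03. Of the 22 genes of this list, 10 were lower and 12 higher. At an unadjusted p under 0.05, 5 were lower and 7 higher (22.7% and 31.8%, against 11.4% and 13.2% of all genes tested). The redox member of the list, *Nqo1*, was at −1.73, and at 0.84 with the score.

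Clock genes were higher for 12 of 18, with a median of 0.54 that was 0.35 without vehicle replicate 3. *Per2* lay at 5.65, 12.5 and 9.15 CPM in vehicle and 31.5, 42.6 and 65.8 CPM with SN-011, with no overlap. Neither the labels nor the methods used here give the hour at which each mouse was killed. The heat shock genes *Hspa1a* and *Hspa1b*, from a list of immediate early genes that had a median of 0.10 and of −0.36 without vehicle replicate 3, were at 2.83 and 1.92. The unfolded protein response list had a median of −0.16 over 19 genes, which was −0.49 without SN-011 replicate 2 and −0.04 without SN-011 replicate 1.

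Outside the lists, the largest differences downward were partly of genes tied to IFN or to secretory epithelium. *Ifit1bl1*, of the IFIT family, lay at 343, 442 and 302 CPM in vehicle and 11.96, 45.9 and 72.1 CPM with SN-011. *Ubd*, a ubiquitin-like modifier induced by IFN-γ, lay at 18.6, 33.5 and 18.03 CPM and then at 3.65, 2.24 and 5.10 CPM (−2.67, and −3.52 with the score). *Tnfrsf14* (HVEM), a lymphocyte co-receptor, was at −3.41. The gasdermins *Gsdmc4* and *Gsdmc3* were at −3.45 and −3.08, and *Spink4* and *AA467197* at −2.67 and −2.79. *Rpl29* was at −3.39, but vehicle replicate 3 alone lay at 251 CPM and the other 5 samples at 7.66 to 12.5 CPM, and without that sample it was at −0.37.

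The largest differences upward included genes of barrier epithelium and of the liver. *Gjb5*, a connexin of squamous epithelium, was at 0.00 to 0.437 CPM in vehicle and 3.89 to 7.55 CPM with SN-011. *Nkpd1* lay at 1.29, 3.80 and 0.963 CPM and then at 36.1, 24.7 and 27.5 CPM. *Arg1*, the arginase of liver and macrophages, lay at 71.2, 9.83 and 44.96 CPM with SN-011 against 2.18 to 4.55 CPM. *Crb2*, *Gdpd2* and *Pkhd1l1* were at 3.84, 3.76 and 3.66. *Mug1*, a plasma protease inhibitor, had 0 counts in the vehicle samples and 367 in the SN-011 samples together, at least 134-fold higher against a floor of 3 counts over the vehicle group. *Itih3*, of plasma too, was at 0.00 to 0.403 CPM and 1.71 to 13.0 CPM, and both were highest in SN-011 replicate 1.

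The stomach was then set against the other tissues by testing the difference itself, its log2 fold change minus the mean of those of heart, muscle and tongue. Of 19731 genes, 735 differed downward (3.73%) and 842 upward (4.27%) at an adjusted p under 0.05. This fit takes samples of different tissues as different mice, while vehicle replicate 1 had the *Xist* and *Ddx3y* pattern of a female in all 4 tissues and none of the other 20 samples did. Taking samples of the same treatment and number as 1 mouse gave 604 and 748. Without stomach SN-011 replicate 1 the counts were 167 and 179, without SN-011 replicate 3 they were 261 and 390, and without vehicle replicate 2 they were 482 and 480. The count downward was 437 without vehicle replicate 1 and 1451 without vehicle replicate 3. MHC class I genes stood lower in the stomach for 7 of 23 and higher for 0, with median log2 fold changes of −0.33 in heart, −0.53 in muscle and −0.36 in tongue. Among antiviral effectors 2 of 38 differed downward and 0 upward, and their medians were −0.48, −0.80 and −0.75 in those tissues. Of 159 M7core genes 12 differed downward and 5 upward. NF-kB targets differed upward for 5 of 23, and basal squamous genes for 4 of 31.

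*B2m* was at −1.51 in the stomach and at −0.14 in heart, −0.38 in muscle and −0.63 in tongue, a difference of −1.13 ± 0.24 (adjusted p = 0.00786 in edgeR's quasi-likelihood test). *Psme1* differed by −1.11 ± 0.21 (adjusted p = 0.00466) and *Psmb8* by −1.03 ± 0.26. *Rsad2* was lower in every tissue, at −1.82 in the stomach against −0.73, −0.96 and −0.95, with a difference of −0.94 ± 0.23 (adjusted p = 0.0180). *Trp63* was at 2.18 in the stomach against 0.10, −0.90 and −0.13. The basal squamous list it belongs to had medians of 0 in heart, 0 in muscle and −0.87 in tongue. Levels of squamous genes in those tissues are not given here, so the difference is not read as particular to the stomach. *Selp* went opposite ways, at 3.27 in the stomach and at −1.52, −3.70 and −2.38 elsewhere. In vehicle stomach *Selp* was close to the smallest level that can be shown, so the size of its value depends on the prior count.

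**Figure D5:**
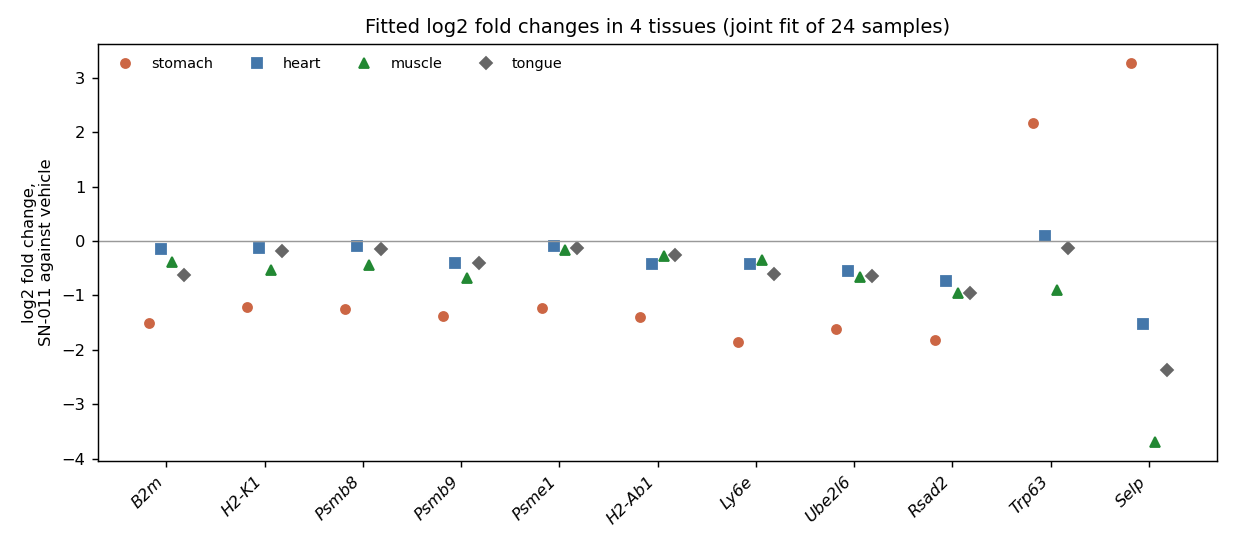
Each point is the fitted log2 fold change between SN-011 and vehicle for 1 gene in 1 tissue, from the joint fit of 24 samples with 3 per group. The 9 genes from B2m to Rsad2 lie lower in the stomach than in heart, muscle and tongue, and Trp63 and Selp lie higher. Selp was close to the smallest level that can be shown in vehicle stomach.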

How the data were processed

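RNA-Seq of 6 stomach samples of *Trex1*-/- mice was analysed, 3 per group, and the other 18 samples of the series entered only the joint fit and the comparison of tissues. The authors deposited raw counts of read pairs per gene for 54532 gene identifiers, with no normalization. The study's methods name Trimmomatic, hisat2 and featureCounts on uniquely mapped pairs, while the submitters' processing notes name HISAT2, HTSeq and mm10. The library is described as strand-specific in the methods, but the strand setting of the counting is not given in the sources used here, so reads of overlapping genes may be lost or shared. Of the identifiers, 54495 are in GENCODE M21 of GRCm38, which gave symbols and positions.

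Counts were fitted in edgeR 4.0.16 (R 4.3.3) on the 6 samples alone, after filterByExpr (minimum count 10, minimum total 15) and TMM, with a prior count of 0.125, the quasi-likelihood test and Benjamini-Hochberg adjustment at 0.05. The composition score used log2(CPM + 0.5). Floors cover counting error only. The fits were checked on simulated data with known fold changes. Alternatives were other normalizations and filters, DESeq2 1.42.0, edgeR's exact test, voom of limma 3.58.1, the joint fit, a replicate block, composition scores as terms, and each sample left out. The smooth muscle score as a term, alone or with the squamous minus glandular score, was chosen after seeing the data. Tables and figures used Python with pandas and matplotlib.

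The samples, the gene lists and the tests were chosen with earlier results of these data known. In each list the genes named first were the 3 most abundant and up to 3 with the smallest p whose groups did not overlap. Outside the lists, the 8 largest differences in each direction were named among genes with an unadjusted p under 0.05, groups that did not overlap and at least 5 CPM in the higher group, leaving out Gm and Rik genes and immunoglobulin variable segments. Some genes that the rule names are not reported here.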

Additional observations from a re-analysis of the deposited data

Results flagged for a closer look

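For 30 of the 152 genes named for the stomach, the log2 fold change in the stomach differed from the mean of those in heart, muscle and tongue at an adjusted p under 0.05 (edgeR's quasi-likelihood test, joint fit of 24 samples, tissues taken as different mice). The values below are that difference in log2 fold change, and 14 lay downward and 16 upward. Over all 19731 genes tested 3.73% differed downward and 4.27% upward. Many of the 152 genes were named for their p or size in the same stomach samples, so nothing is read from the share of them that differed. No group had 4 samples, so single samples far from their group were not looked for.

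Downward, among antigen presentation genes, the difference was −1.13 for *B2m*, −0.93 for *H2-K1*, −0.88 for *Psmb9*, −1.11 for *Psme1*, −1.03 for *Psmb8* and −1.08 for *H2-Ab1*. Among other immune genes it was −0.94 for *Rsad2*, −0.996 for *Ube2l6*, −1.40 for *Ly6e*, −1.71 for *Ubd*, −1.49 for *Ly6c2*, −1.43 for *Nkg7* and −3.11 for *Tnfrsf14*. The parietal cell factor *Esrrg* differed by −1.42.

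Upward, among squamous genes, the difference was 3.86 for *Col17a1*, 2.49 for *Trp63*, 2.75 for *Aloxe3*, 2.07 for *Ppl* and 4.73 for *Gjb5*. Among immune genes it was 6.34 for *Ccl19*, 2.94 for *Saa3*, 5.81 for *Selp*, 2.10 for *Fscn1* and 1.83 for *Csf3r*. The remaining differences were 6.15 for *Chia1*, 1.82 for *Angptl4*, 3.69 for *Slc6a4*, 1.49 for *Calcoco1*, 5.01 for *Itih3* and 9.99 for *Mug1*. *Mug1* had 0 counts in the vehicle stomachs, so its value depends on the prior count and is no bound. *Ccl19*, *Selp*, *Itih3*, *Gjb5* and *Slc6a4* were close to the smallest level that can be shown in vehicle stomach. The size of their values depends on the prior count too. Levels in heart, muscle and tongue are not given here. The fitted values of *Chia1* were 4.76 in the stomach and −2.68, 0.74 and −2.21 in heart, muscle and tongue. In the stomach its level was by far the highest in SN-011 replicate 2. Squamous signal differed between the stomach groups, and its part in these differences was not tested.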

How the results depend on the processing

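The count of genes called in the stomach depended on the processing. Against 0 genes, 1368 were called with no filter, 126 with at least 10 counts in every sample, 2389 with DESeq2, 1835 with edgeR's exact test, 6408 with voom and sample weights and 2738 in the joint fit. Leaving out 1 sample gave 0 to 64 calls. At an unadjusted p under 0.05, 985 to 2322 genes were lower and 1243 to 2605 higher with 1 sample left out. With voom these were 3960 and 4370, with the squamous minus glandular score 128 and 189, with the smooth muscle score 830 and 1053, and with both scores 118 and 343. With library size alone 1137 genes were lower, a scaling that moved the median of all genes by 0.174. For the stomach against the other tissues, leaving out 1 sample gave 167 to 1451 calls downward and 179 to 1154 upward, and no filter gave 395 downward.

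Whether replicate numbers pair the samples could not be decided from so few samples. Same-numbered vehicle and SN-011 samples correlated at −0.084, 0.299 and −0.017, and differently numbered ones at −0.348 to 0.305. The replicate block gave 181 calls. Under the block *Pgc* was at −0.065.

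With 1 sample left out, the medians of 31 of 37 lists kept their sign, and those of chemokines, dendritic cells, chief cells, adipocytes, exocrine pancreas and immediate early genes did not. The ranges were −1.11 to −0.77 for antiviral effectors, −0.89 to −0.68 for MHC class I, −0.76 to −0.51 for M7core, 1.65 to 2.20 for basal squamous, 1.70 to 2.54 for cornified, −1.24 to −0.67 for parietal and −1.49 to −0.70 for pit cell genes. Antiviral effectors were at −0.68 with either score and −0.61 with both. MHC class I was at −0.59 with library size alone and −0.62 with both scores. M7core was at −0.38 with the smooth muscle score and with both. Basal squamous genes were at 0.48 with the squamous minus glandular score and 0.50 with both, and cornified genes at 0.94 and 1.33. Parietal genes turned to 0.11 and 0.30, and pit cell genes to 0.72 and 0.76. The squamous, parietal and pit cell genes enter the score, so these moves follow in part from how it was made.

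Of 3009 values of the 152 named genes under these settings, 87 changed sign, most of them with composition as a term, and 0 of the changed values were called. With the squamous minus glandular score, log2 fold changes turned to 0.53 for *Oas2*, 0.28 for *Ifngr1*, −1.43 for *Tmem173*, −0.48 for *Cxcl12*, 0.16 for *Gsdmd*, 0.68 for *Il18*, −0.82 for *Thy1*, −1.67 for *Lyz2*, −0.70 for *C1qa*, −0.92 for *C1qb*, −0.68 for *Fscn1*, 0.42 for *Il33*, 0.15 for *Fabp5*, −0.00064 for *Krt14*, 0.33 for *Sprr2a1*, 0.093 for *Sprr2a2*, 0.76 for *Car2*, 0.047 for *Kcne2*, 1.73 for *Tff2*, 0.31 for *Gkn1*, 1.51 for *Gkn2*, 0.95 for *Psca*, 0.41 for *Sult1c2*, 0.22 for *Anxa10*, 0.94 for *Krt19*, 0.996 for *Krt8*, 0.78 for *Krt18*, 0.16 for *Epcam*, −0.24 for *Acta2* and 0.84 for *Nqo1*. With both scores they turned to 1.16 for *Oas2*, 0.51 for *Mx1*, 0.44 for *Stat2*, 0.31 for *Ifngr1*, −1.34 for *Tmem173*, −0.62 for *Cxcl12*, 0.20 for *Gsdmd*, 0.56 for *Il18*, −1.08 for *Thy1*, −1.63 for *Lyz2*, −0.995 for *C1qa*, −1.14 for *C1qb*, −0.92 for *Fscn1*, −0.014 for *Mmp9*, 0.82 for *Il33*, 0.015 for *Fabp5*, −0.18 for *Krt14*, 0.44 for *Sprr2a1*, 0.34 for *Sprr2a2*, 0.041 for *Atp4a*, 1.25 for *Car2*, 0.32 for *Kcne2*, 1.504 for *Tff2*, 0.39 for *Pga5*, 0.090 for *Gkn1*, 1.40 for *Gkn2*, 0.75 for *Psca*, 0.51 for *Sult1c2*, 0.41 for *Anxa10*, 0.78 for *Krt19*, 0.98 for *Krt8*, 0.75 for *Krt18*, 0.49 for *Epcam*, −0.54 for *Acta2*, −0.10 for *Des*, 0.11 for *Mki67* and 0.73 for *Nqo1*. With the smooth muscle score they turned to 0.89 for *Oas2*, 0.51 for *Stat2*, −0.47 for *C1qa*, −0.55 for *C1qb*, −0.60 for *Acta2* and −0.019 for *Des*. With voom they turned to 0.032 for *Oas2*, 0.061 for *Trbc2* and −0.39 for *Pgc*. With 1 sample left out, the values of 6 genes lay on both sides of 0: −0.56 to 0.088 for *Oas2*, −0.093 to 0.45 for *C1qb*, −0.98 to 0.70 for *Pgc*, −0.22 to 0.53 for *Tmem173*, −0.096 to 0.80 for *Lyz2* and −1.22 to 0.050 for *Psca*. The cause of these changes was not tested. Depth limits genes near the floor of 0.178 to 0.206 CPM, and 3 samples a group limit every call.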
